A study of Mus musculus with 9 samples.

Results

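The genes described here are 37 mouse genes of the type I interferon response and of nucleic acid sensing: interferon regulatory factors and STAT2, sensors of RNA and of Z-form nucleic acid with their adaptors, and interferon-stimulated genes. They were taken by name from the 57180 rows of the count table through GENCODE release M21. The rule itself uses no measured value, but the members were chosen with earlier results of these data known. All 37 had a row, and 33 of them passed the filter on low counts. Oas2, Ifit3b, Mx1 and Mx2 did not pass it and were not tested in the main fit of all 9 libraries. Lgr5-GFP+ cells, labelled as intestinal stem cells, were sorted from mouse small intestine in 3 groups of 3 libraries. KO day 4 came from Lgr5-EGFP-CreERT2; Kansl1 f/f mice given tamoxifen daily for 4 days, and KO day 3 from mice of this genotype given it for 3 days. The control group received corn oil and is labelled KANSL1-WT; the series text does not restate which alleles these mice carried. Cre activity was restricted to cells that use the Lgr5 promoter. The protein KANSL1 holds together a complex named NSL, whose enzyme KAT8 acetylates histones. Tamoxifen and the knockout went together in both KO groups, and the KO groups differed in the length of treatment, so these cannot be told apart. The labels do not give age or sex, nor whether replicates were separate animals, and p-values therefore describe only how these libraries spread, which may be technical.

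Type I interferons bind the receptor formed by IFNAR1 and IFNAR2, whose kinases JAK1 and TYK2 activate STAT proteins, among them STAT2. STAT2 acts with IRF9 in a complex that binds the interferon-stimulated response element (ISRE) of target genes, and GAS is a shorter element found in promoters that respond to interferons. Cells start the response when sensors such as RIG-I (Ddx58), MDA5 (Ifih1) and TLR3 meet RNA and signal through adaptors such as MAVS to IRF3 and IRF7. IRF7 is itself an interferon-stimulated gene and amplifies the response. In the intestinal epithelium the pathway is known for defence against enteric viruses and for its effects on regeneration of the crypt.

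Promoter stretches of 4 members that were higher at KO day 4 are shown first, since the ISRE is the element through which many genes of this family are known to be controlled. RefSeq windows (build GRCm38.p6, 250 bases before to 50 after a gene's start) were matched by symbol for 29 of the 37 members; the others are Dhx58, Mx1, Mx2, Oas2, Parp14, Rtp4, Usp18 and Zbp1. Each stretch is written 5′ to 3′ on the strand of the gene. Capitals mark matches to an ISRE-like pattern, GAAA, any 2 bases, GAAA, read on both strands, with overlapping matches joined. In Irf1, shown for its own course across the groups, they mark a GAS-like pattern, TTC, any 3 bases, GAA.
Isg15, chr4:156200855-156200916, minus strand: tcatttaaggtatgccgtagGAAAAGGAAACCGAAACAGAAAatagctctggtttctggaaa
Cxcl10, chr5:92349073-92349122, minus strand: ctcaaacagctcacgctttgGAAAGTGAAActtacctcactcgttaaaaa
Oas3, chr5:120777705-120777754, minus strand: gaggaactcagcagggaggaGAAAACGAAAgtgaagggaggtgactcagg
Rsad2, chr12:26456543-26456592, minus strand: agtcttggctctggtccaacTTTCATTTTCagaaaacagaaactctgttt
Irf1, chr11:53769904-53769952, plus strand: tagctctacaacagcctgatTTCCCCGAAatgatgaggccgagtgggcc
Ifit3 and its neighbour Ifit3b are shown because their near-identical transcripts make their counts uncertain, and these 84 bases are the same in both.
Ifit3, chr19:34583353-34583436, plus strand: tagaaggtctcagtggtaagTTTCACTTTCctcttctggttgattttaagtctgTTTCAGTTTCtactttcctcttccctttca
Ifit3b, chr19:34607749-34607832, plus strand: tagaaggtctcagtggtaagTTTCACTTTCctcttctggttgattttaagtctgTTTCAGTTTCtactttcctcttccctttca
Isg15 holds 3 overlapping matches between 78 and 57 bases before its start. Of the 29 members with a window, 15 (51.7%) hold the ISRE-like letters, against 1079 of 27025 genes in the RefSeq table (3.99%). The GAS-like letters are in 8 of the 29 (27.6%) and in 2582 of the 27025 genes (9.55%), and matches of the 2 patterns overlap in 2 members. The members were picked as interferon-response genes, so these shares describe that choice.

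Libraries held 8400458 to 21484679 counts. Levels are given as CPM, counts per 1e6 of the TMM-scaled library size, on which 1 CPM corresponds to 4.47 to 8.53 counts in a KO day 4 library, 11.7 to 28.2 in KO day 3 and 22.3 to 30.3 in control. Genes of the mitochondrial genome took 69.4% ± 2.63 of all counts at KO day 4, 27.3% ± 7.32 at KO day 3 and 20.03% ± 5.08 in control (SD, n = 3 each). In 2 groups 1 library was unlike the rest: the Pearson correlation of log2 CPM over genes was 0.857 and 0.863 between KO day 4 replicate 3 and the other two, against 0.923 between those, and 0.914 and 0.910 for KO day 3 replicate 1, against 0.971. Control libraries correlated at 0.969 to 0.973. Kansl1 measured 2.93, 5.09 and 8.96 CPM at KO day 4, 2.81, 2.99 and 2.55 at KO day 3 and 4.46, 11.4 and 9.83 in control. Its log2 fold change was -0.63 (SE 0.46, adjusted p = 0.34) at KO day 4 and -1.62 (SE 0.45, adjusted p = 0.12) at KO day 3, so neither reduction passed the test, and the labelled groups overlapped at KO day 4. A count per gene does not show whether the deleted exons are missing. Markers of intestinal stem cells, all 10 present in each group, summed to 2756 to 7566 counts per 1e6 nuclear-gene counts (nuclear CPM) at KO day 4, 12680 to 18310 at KO day 3 and 18800 to 22730 in control; Lgr5 itself measured 22.3, 26.7 and 14.8, then 19.4, 38.9 and 33.6, then 30.6, 34.8 and 39.3 CPM in these groups.

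After 4 days of tamoxifen, part of the interferon-response genes was higher than in control. Irf7 rose, as did the ISG15 pair Isg15 and Usp18, the chemokine Cxcl10, the antiviral enzymes Oas3 and Rsad2, the Z-nucleic acid sensor Zbp1 and, by a small amount, the ubiquitin ligase Trim25. Ifitm3, the most abundant member per length of transcript, fell. The other 24 tested members did not pass the test, among them Irf1, Irf3, Irf9, Stat2 and the RNA sensors Ddx58, Ifih1 and Tlr3. By edgeR's quasi-likelihood test with Benjamini-Hochberg adjustment over 13405 genes and a threshold of 0.05, 8 of the 33 tested members were called higher and 1 lower, and of all tested genes 11.1% were called higher and 11.5% lower. The median log2 fold change was 0.57 over the tested members and -0.06 over all genes. With library size alone as the scaling 1 member was called higher and 18 lower, as the median of all genes moved to -1.95 and that of the members to -1.34; changes on the TMM scale are relative to the bulk of genes. Values of 13 members at KO day 4 lay above all 3 control values and those of 3 members below, which was the case for 20.6% and 26.4% of all tested genes. Replicate 3 held the highest KO day 4 value for 25 of the 33 members. In bulk samples, more or fewer cells of a type and more or less RNA per cell cannot be told apart. The share of mitochondrial counts and the marker sums of other cell types, given with the marker lists, moved with the KO day 4 group, and their part in these calls was not tested.

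The transcription factors gave 1 call among 5 at KO day 4 against control, a higher one, against 11.1% of all tested genes called higher. Irf7 (GRCm38, as for all genes here, chr7:141262706-141266481, minus strand) measured 17.0, 14.2 and 29.3 CPM at KO day 4, 2.90, 3.90 and 6.73 at KO day 3, and 5.24, 2.41 and 3.01 in control. Every KO day 4 library was above the other 6. The log2 fold change was 2.49 (SE 0.43, adjusted p = 0.0028) at KO day 4 against control and 2.13 (SE 0.42, adjusted p = 0.011) against KO day 3. Exons of Irf7 overlap those of Phrf1 on the opposite strand, and the strand setting of the counting is not given in the sources used here, so reads of the overlap cannot be assigned. Phrf1 measured 12.5, 23.7 and 18.6 CPM at KO day 4 against 10.4, 7.63 and 10.4 in control, a log2 fold change of 0.94 (SE 0.27, adjusted p = 0.028). The highest Phrf1 value was in KO day 4 replicate 2, where Irf7 was lowest of its group, but both genes were called higher at KO day 4 than in control. The part of Phrf1 reads in the Irf7 values was not tested.

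Irf3, the factor that acts at the start of the response, had 26.7, 21.9 and 30.2 CPM at KO day 4, 29.4, 19.5 and 21.9 at KO day 3 and 26.4, 19.5 and 22.9 in control, and the groups overlapped. On the log2 scale the Irf3 difference at KO day 4 was 0.19 (SE 0.22, adjusted p = 0.56). Irf9, the DNA-binding partner of the STATs, had 8.44, 9.86 and 12.3 CPM at KO day 4, 4.01, 14.3 and 15.8 at KO day 3 and 8.81, 12.4 and 10.4 in control, with a log2 fold change of -0.05 (SE 0.42, adjusted p = 0.94) at KO day 4. Stat2 had 3.87, 5.56 and 3.58 CPM at KO day 4, 0.68, 1.95 and 3.08 at KO day 3 and 2.68, 2.45 and 2.07 in control. All 3 Stat2 values at KO day 4 were above the others, but its log2 fold change of 0.86 (SE 0.53, adjusted p = 0.27) did not pass and turned to -1.01 with library size alone. Exons of Irf3 overlap those of Bcl2l12, which fell by 3.91 on the log2 scale (adjusted p = 0.0027) at KO day 4, and exons of Irf9 overlap those of Rnf31.

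Irf1, a factor induced by interferon gamma and by type I interferon, followed another course. It measured 19.8, 7.79 and 32.2 CPM at KO day 4, 59.0, 25.5 and 45.5 at KO day 3 and 14.3 in each control library. The 3 KO day 3 values were the ones that stood clear of control, while the KO day 4 values lay on both sides of it. Against control Irf1 had a log2 fold change of 0.47 (SE 0.42, adjusted p = 0.45) at KO day 4 and 1.59 (SE 0.42, adjusted p = 0.10) at KO day 3, so neither passed. The KO day 3 difference passed with DESeq2 (adjusted p = 0.0086), with limma voom (adjusted p = 0.016), with no filter on low counts (adjusted p = 0.0097), with a fit of the 2 groups alone (adjusted p = 0.032) and without KO day 4 replicate 3 (adjusted p = 0.0498).

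ISG15 is a ubiquitin-like protein that is attached to other proteins, and USP18 removes it and also dampens signalling at the interferon receptor; both genes rose at KO day 4. Usp18 (chr6:121245906-121270917, plus strand) measured 3.63, 2.38 and 7.61 CPM at KO day 4, 0.43, 0.78 and 2.09 at KO day 3 and 0.16, 0.53 and 0.31 in control. The KO day 4 values were above all others, and KO day 3 overlapped control. Its log2 fold change at KO day 4 was 3.72 (SE 0.81, adjusted p = 0.0086), resting on 80 counts at KO day 4 and 27 in control. Isg15 (chr4:156199424-156200818, minus strand) measured 1.88, 2.70 and 5.82 CPM at KO day 4, 1.28, 1.04 and 4.71 at KO day 3 and 0.66, 0.73 and 0.63 in control. Both KO groups lay above control without overlap. The log2 fold change of Isg15 was 2.33 (SE 0.72, adjusted p = 0.039) at KO day 4 and 1.81 (SE 0.69, adjusted p = 0.23) at KO day 3.

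Among 9 genes of RNA and Z-nucleic acid sensing, 2 were called higher at KO day 4 and none lower, against 11.1% and 11.5% of all tested genes. Their median log2 fold change was -0.06. Zbp1, which senses Z-form RNA and DNA and can start cell death, measured 2.70, 0.80 and 8.96 CPM at KO day 4, 2.56, 1.08 and 3.69 at KO day 3 and 0.70, 0.13 and 0.36 in control. Both KO groups were above control, and replicate 2 was the lowest of each. Zbp1 had a log2 fold change of 3.34 (SE 0.93, adjusted p = 0.025) at KO day 4 and 2.61 (SE 0.89, adjusted p = 0.19) at KO day 3. Trim25, a ubiquitin ligase that acts on RIG-I, measured 51.3, 49.0 and 54.6 CPM at KO day 4, 33.0, 40.5 and 42.4 at KO day 3 and 35.9, 35.9 and 35.6 in control. It was higher at KO day 4 by a log2 fold change of 0.53 (SE 0.16, adjusted p = 0.032). With library size alone this turned to -1.37, called lower (adjusted p = 6.1e-05), and then stood 0.58 above the median of all genes.

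The RNA sensors themselves did not pass. Ddx58, which encodes RIG-I, had 7.27, 6.68 and 10.3 CPM at KO day 4, 4.01, 3.34 and 4.40 at KO day 3 and 3.77, 4.86 and 5.43 in control. The KO day 4 values lay above both other groups, with a log2 fold change of 0.78 (SE 0.32, adjusted p = 0.11) that turned to -1.15 with library size alone. Ifih1, which encodes MDA5, lay the other way, with 6.09, 6.84 and 2.46 CPM at KO day 4, 4.60, 6.98 and 8.51 at KO day 3 and 8.97, 9.78 and 10.6 in control. The log2 fold change of Ifih1 was -0.90 (SE 0.38, adjusted p = 0.11) at KO day 4 and -0.54 (SE 0.36, adjusted p = 0.52) at KO day 3. Tlr3, the endosomal sensor of RNA duplexes, had 1.88, 0 and 2.69 CPM at KO day 4, 6.40, 3.94 and 3.40 at KO day 3 and 3.30, 4.99 and 5.25 in control. All 3 KO day 4 values of Tlr3 were below the others, with a log2 fold change of -1.60 (SE 0.75, adjusted p = 0.15) that passed with limma voom (-3.37, adjusted p = 0.024). The adaptor Mavs, the RNA-activated kinase gene Eif2ak2, the RNA editor Adar and the RIG-I relative Dhx58 had log2 fold changes at KO day 4 between -0.26 and 0.00, with adjusted p of 0.83 to 0.998.

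**Figure D1:**
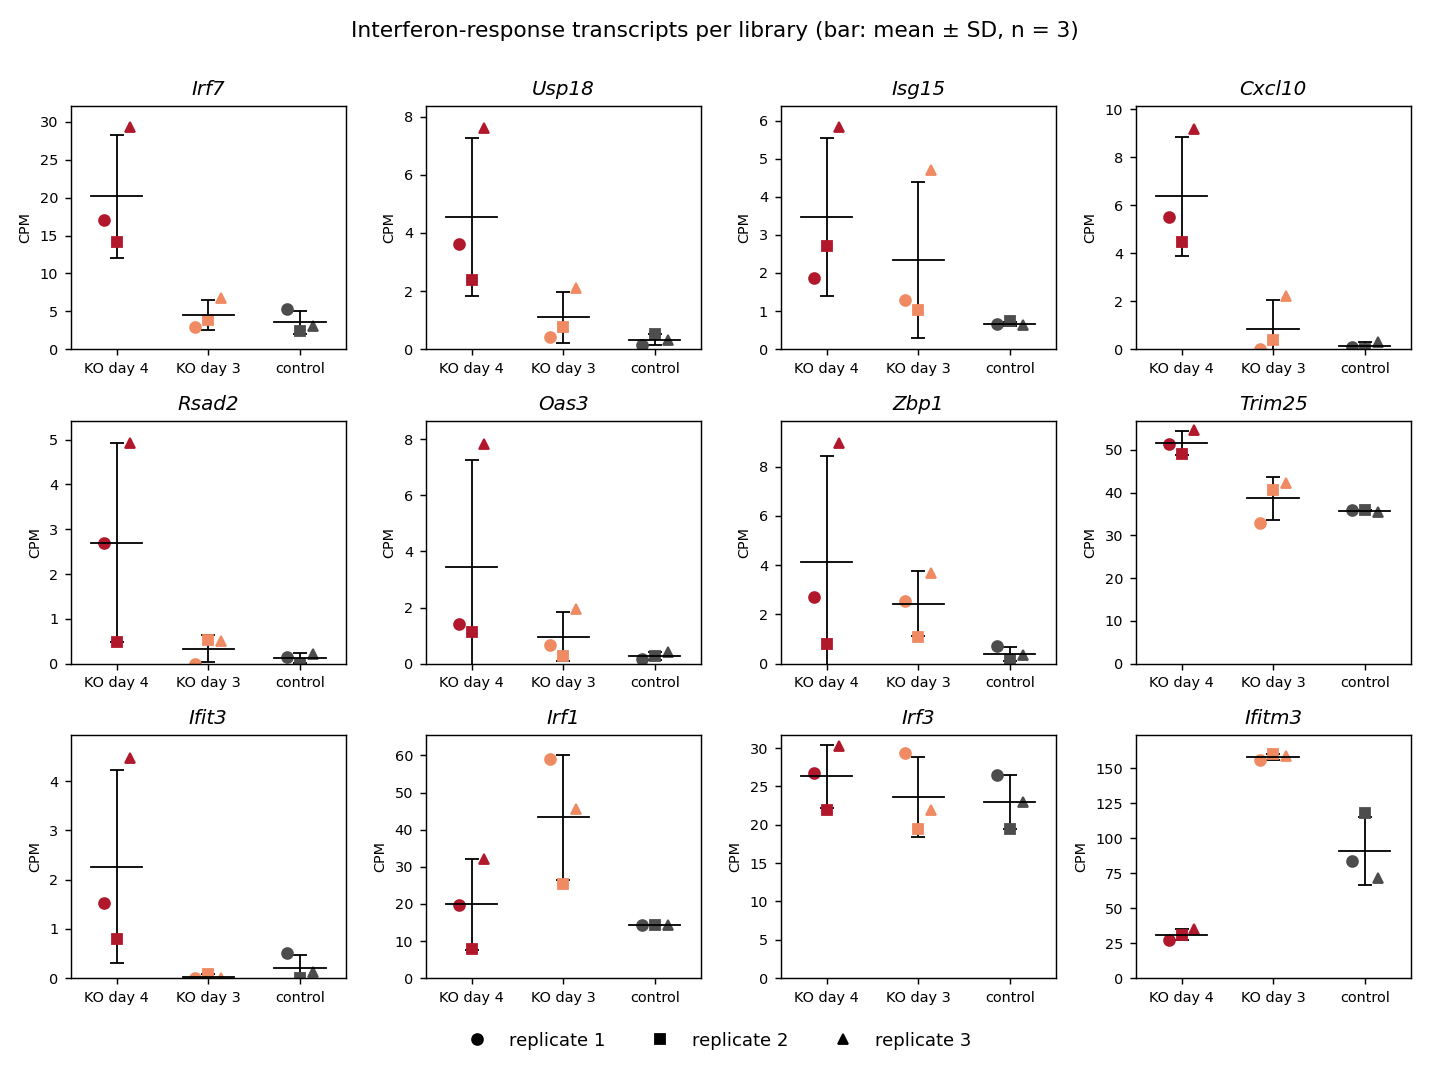
Levels of 12 members in each of the 9 libraries (vertical axis, CPM of TMM-scaled library size; bars give the mean ± SD of 3 libraries and are cut at 0). Irf7, Usp18 and Cxcl10 sat above control in every KO day 4 library, replicate 3 (triangles) was the highest KO day 4 library in each of the 12 panels, and Ifitm3 was lowest at KO day 4 and highest at KO day 3.

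Oligoadenylate synthetases make the messenger that activates RNase L. Of 6 such genes and relatives 5 were tested, and all 5 fold changes at KO day 4 were above 0 on the TMM scale. Of the 5, 1 was called higher, against 11.1% of all tested genes. Oas3 (chr5:120753098-120777661, minus strand) had 1.41, 1.11 and 7.84 CPM at KO day 4, 0.68, 0.26 and 1.95 at KO day 3 and 0.16, 0.26 and 0.40 in control. The KO day 4 values were above control, with replicate 3 far above the other two. The log2 fold change was 3.59 (SE 1.02, adjusted p = 0.028), from 54 counts at KO day 4 and 21 in control. Oas2 had no count in any control library, 4 counts at KO day 3 and 39 at KO day 4, in replicates 1 and 3 only (3.05, 0 and 2.91 CPM). Against a floor of 3 counts over the control group that is at least 52.8-fold higher, and it was not tested in the main fit. Where it was tested, Oas2 passed with no filter on low counts (8.07, adjusted p = 0.0034) and with DESeq2 (8.15, adjusted p = 1.8e-04). It also passed in 6 of the 7 fits with 1 library left out that tested it. Those 7 fits all kept KO day 4 replicates 1 and 3, whose counts let Oas2 pass the filter. They therefore cannot show how the call depends on these libraries. Oasl1 and Oasl2 had log2 fold changes of 1.73 (adjusted p = 0.085) and 0.83 (adjusted p = 0.18), Oas1a and Oas1g of 0.57 and 0.64 (adjusted p = 0.27 and 0.58); with library size alone these 4 turned to between -1.34 and -0.22, and Oas3 was at 1.59 and lost its call (adjusted p = 0.14). Transcripts of Oas1a and Oas1g are 97.5% identical over 1860 bases, so their counts may have been split or dropped.

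IFIT proteins bind foreign RNA and block its translation. Ifit3 had 1.52, 0.80 and 4.48 CPM at KO day 4, 0, 0.09 and 0 at KO day 3 and 0.51, 0 and 0.14 in control. Every KO day 4 value was above the other 6. Its log2 fold change at KO day 4 against control was 3.35 (SE 1.26, adjusted p = 0.078), which passed with DESeq2 (adjusted p = 0.032) and limma voom (adjusted p = 0.016). Ifit1 had 1.76, 1.27 and 2.02 CPM at KO day 4, 0, 0.26 and 0.71 at KO day 3 and 0.23, 0.33 and 0.23 in control, again with KO day 4 above all others. The log2 fold change of Ifit1 was 2.63 (SE 0.97, adjusted p = 0.071), which passed with DESeq2 (adjusted p = 0.018) and limma voom (adjusted p = 0.014). Ifit2 overlapped control, at -0.12 (SE 0.91, adjusted p = 0.94). Ifit3b, whose transcript is 97.8% identical to that of Ifit3 over 1700 bases, had no count at KO day 4, 2 at KO day 3 and 4 in control, and the Ifit3 values are uncertain for that reason.

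Antiviral and membrane effectors went in opposite directions. Rsad2, which encodes viperin, an enzyme that makes a chain-terminating nucleotide, had 2.70, 0.48 and 4.93 CPM at KO day 4, 0, 0.52 and 0.50 at KO day 3 and 0.16, 0 and 0.23 in control. It was higher at KO day 4 than in control by a log2 fold change of 4.37 (SE 1.31, adjusted p = 0.034), from 48 and 9 counts. Ifitm3 (chr7:141009586-141010770, minus strand), which blocks fusion of viruses with cell membranes, had 27.2, 31.0 and 34.9 CPM at KO day 4, 155.6, 160.0 and 158.6 at KO day 3 and 83.4, 117.9 and 71.6 in control. The 3 groups did not overlap: KO day 4 was lowest and KO day 3 highest. The log2 fold change was -1.56 (SE 0.20, adjusted p = 6.6e-04) at KO day 4 and 0.80 (SE 0.19, adjusted p = 0.090) at KO day 3. Bst2, which tethers virus particles to the cell, had a log2 fold change of -0.19 (SE 0.40, adjusted p = 0.76) at KO day 4. Mx1, a dynamin-like antiviral protein, had 1 count at KO day 4, none at KO day 3 and 4 in control. Its neighbour Mx2 had 9 counts at KO day 4, all in replicate 2, none at KO day 3 and 1 in control, and the transcripts of both are 94.8% identical over 920 bases.

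CXCL10 attracts T cells and other lymphocytes that carry CXCR3. Cxcl10 (chr5:92346638-92348889, minus strand) had 5.51, 4.45 and 9.18 CPM at KO day 4, 0, 0.39 and 2.20 at KO day 3 and 0.08, 0 and 0.31 in control. The KO day 4 values were above all others, and KO day 3 overlapped control. Cxcl10 rose by a log2 fold change of 5.62 (SE 1.31, adjusted p = 0.012) at KO day 4, from 116 and 9 counts; at KO day 3 the value was 2.83 (SE 1.23, adjusted p = 0.29). The remaining interferon-stimulated members Ifi44, Ifi35, Xaf1, Rtp4 and Parp14 did not pass, with log2 fold changes at KO day 4 of -0.39 for Xaf1 to 1.97 for Ifi44. Ifi44 had 0.35, 0.48 and 2.46 CPM at KO day 4, 1.45, 0.39 and 2.98 at KO day 3 and 0, 0.50 and 0.27 in control, so most of its KO day 4 level came from 1 library. Parp14, an ADP-ribosyltransferase, was above control in all 3 KO day 3 libraries, with 6.65, 5.81 and 7.76 against 4.12, 4.40 and 3.59 CPM and a log2 fold change of 0.74 (SE 0.39, adjusted p = 0.39).

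**Figure D2:**
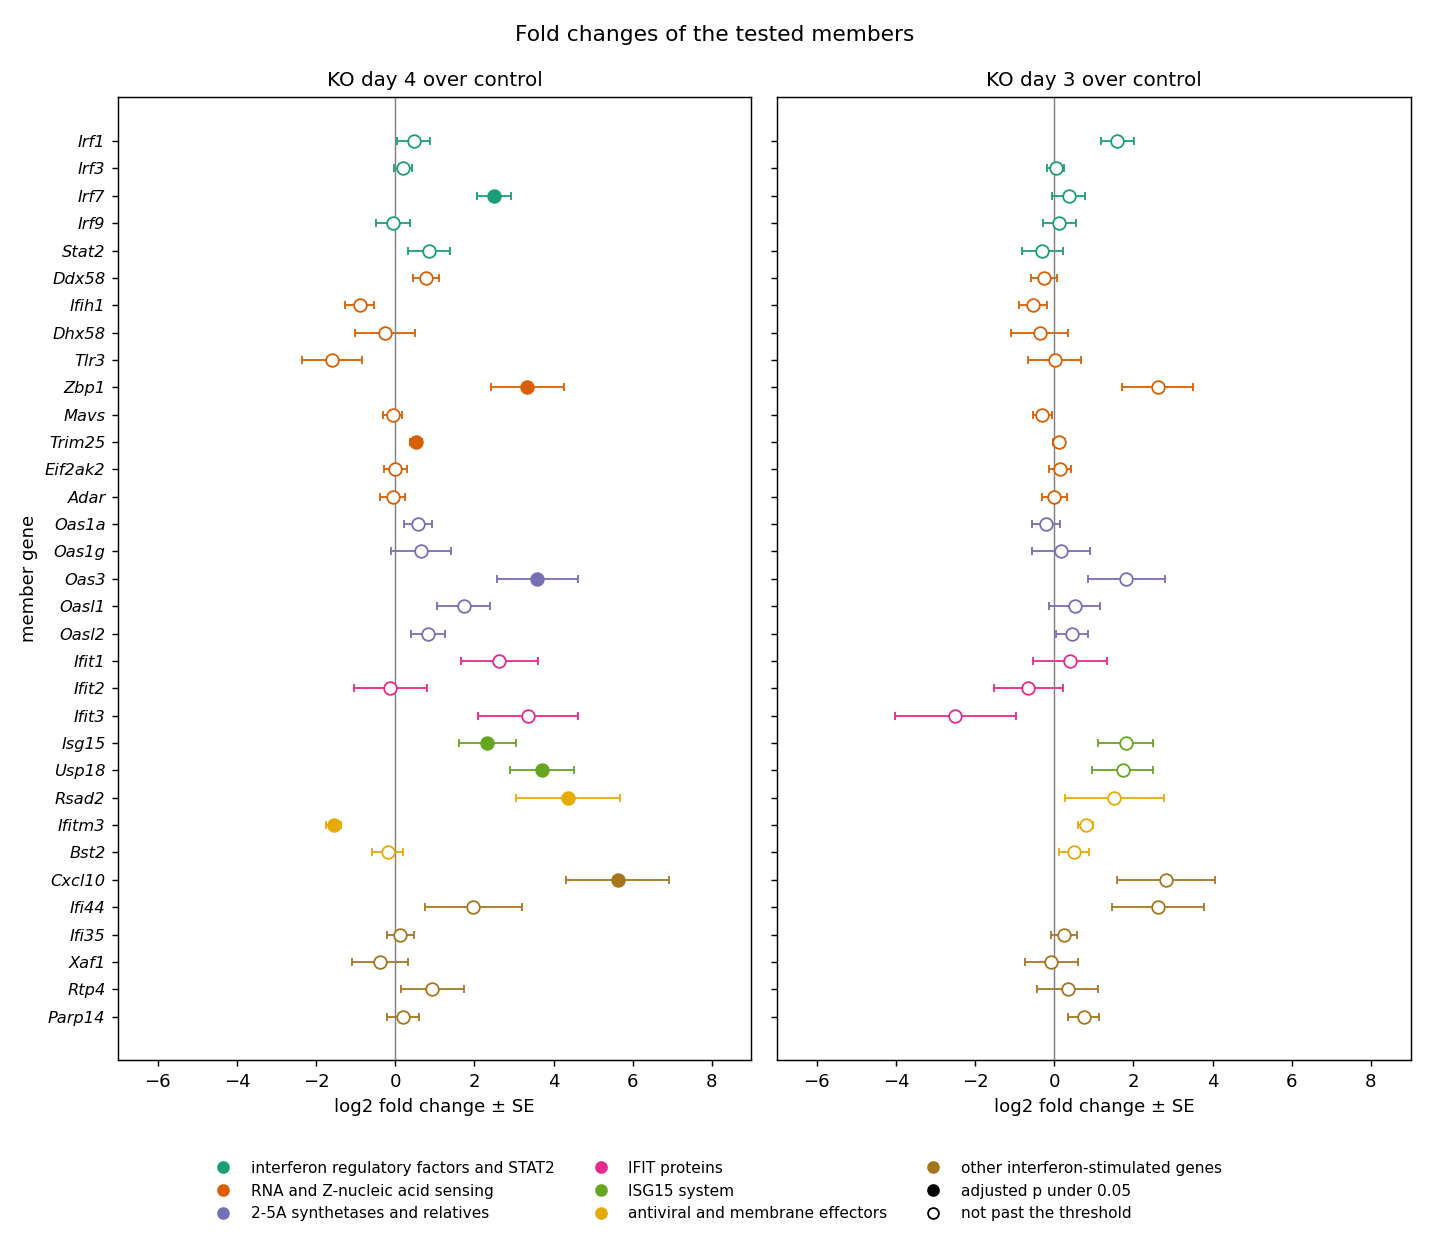
Log2 fold change of the 33 tested members (rows, grouped by role; horizontal axis, bars are 1 SE) for KO day 4 over control, left, and KO day 3 over control, right; filled points have an adjusted p under 0.05. At KO day 4 9 points are filled, from Cxcl10 at 5.62 to Ifitm3 at -1.56, and at KO day 3 none is; with library size alone as the scaling Trim25 turns to -1.37.

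Per kilobase of exon, Ifitm3 was the most abundant member in every group, at 45.8 CPM per kb at KO day 4, 233 at KO day 3 and 134 in control. At KO day 4 it was followed by Ifi35 at 13.0, Oas1a at 10.9, Trim25 at 8.98, Bst2 at 8.35, Irf3 at 7.64 and Irf7 at 5.34 CPM per kb. In control Irf7 stood at 0.94 CPM per kb, below Ifi35 at 11.8, Bst2 at 9.45, Oas1a at 7.28, Irf3 at 6.67 and Trim25 at 6.22. The called members Isg15, Usp18, Cxcl10, Zbp1, Oas3 and Rsad2 had 0.03 to 0.89 CPM per kb in control and 0.49 to 4.59 at KO day 4. Spreads of Ifi35 and Oas1a at KO day 4 (22.5 ± 13.9 and 20.6 ± 8.77 CPM, SD, n = 3) do not separate these neighbours.

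Libraries were left out in turn to see which of the calls at KO day 4 were kept. A fit with fewer libraries also makes fewer calls. Over all genes there were 3021 calls in the main fit and 1588 to 1750 without 1 control library. A lost call therefore need not rest on the library left out. Irf7, Usp18 and Ifitm3 passed in all 9 fits that left out 1 library. With library size alone Cxcl10 was the only member called higher (3.69, adjusted p = 0.015). Irf7 was then at 0.62 (adjusted p = 0.16) against control and at 0.59 (adjusted p = 0.20) against KO day 3. Usp18 was at 1.75 (adjusted p = 0.060), Rsad2 at 2.49 (adjusted p = 0.078), Zbp1 at 1.45 (adjusted p = 0.13) and Isg15 at 0.39 (adjusted p = 0.61). Cxcl10 passed in 8 and was lost without control replicate 1 (5.36, adjusted p = 0.052). Zbp1 was lost without KO day 4 replicate 3 (2.15, adjusted p = 0.10) and without control replicates 2 and 3 (2.91 and 3.27, adjusted p = 0.090 and 0.083). Oas3 was lost without KO day 4 replicate 3 (2.18, adjusted p = 0.13) and without each control library (3.31 to 3.94, adjusted p = 0.069 to 0.10). Isg15 was lost without KO day 4 replicate 2 (2.46, adjusted p = 0.061), without replicate 3 (1.74, adjusted p = 0.11) and without each control library (adjusted p = 0.11 in each). Rsad2 was lost without KO day 4 replicate 3 (3.66, adjusted p = 0.089) and without each control library (adjusted p = 0.080 to 0.11), and it did not pass the filter without KO day 4 replicate 1. Trim25 was lost without any of the 3 KO day 4 and 3 control libraries, at fold changes of 0.48 to 0.56 and adjusted p of 0.059 to 0.11. The count of members called higher was 3 when KO day 4 replicate 3 or control replicate 2 was left out, and 10 when KO day 3 replicate 1 was. Without both libraries that were unlike the rest it was 6, and the median over the members was 0.24. Log2 fold changes were then 2.13 for Irf7, 3.14 for Usp18, 5.31 for Cxcl10 and -1.65 for Ifitm3.

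**Figure D3:**
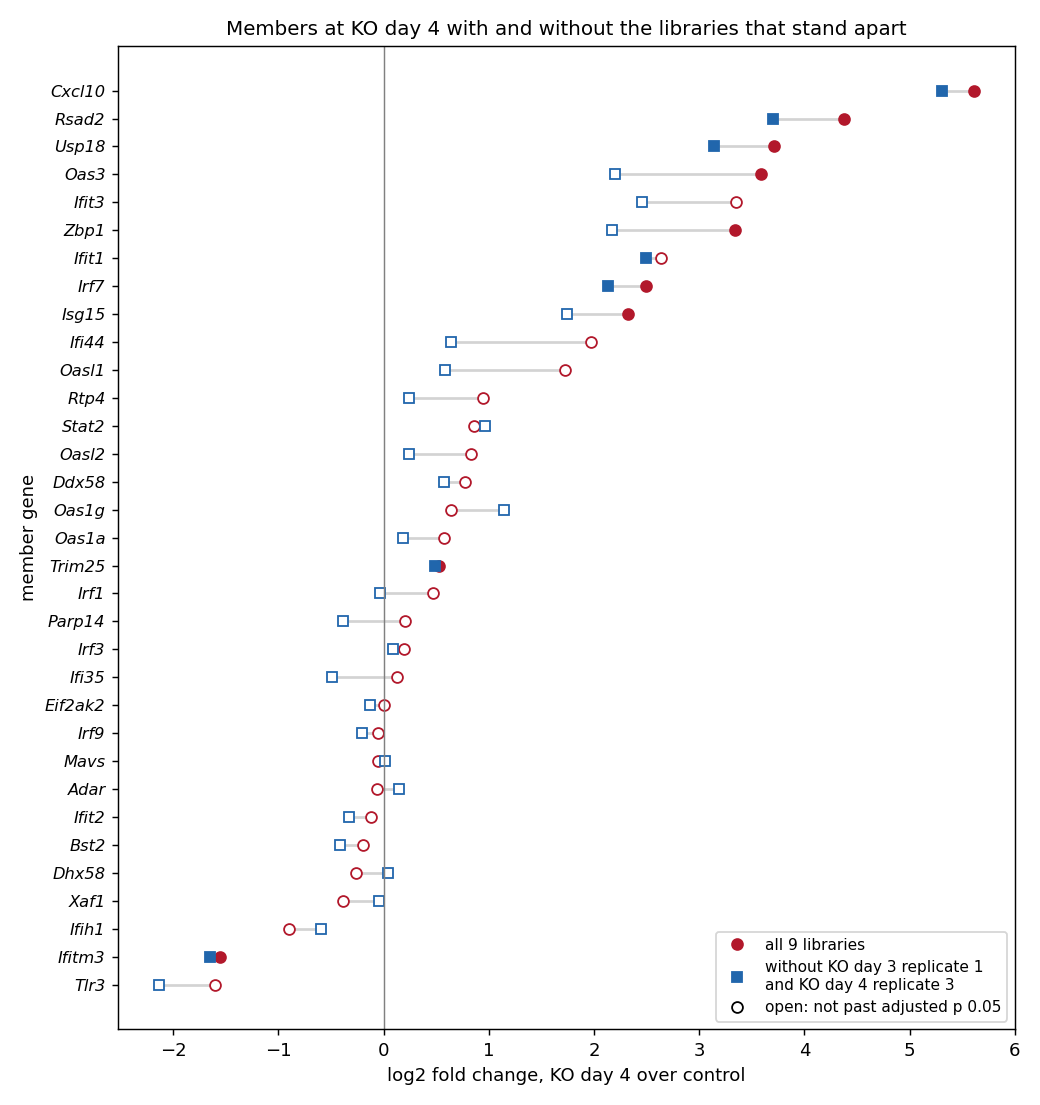
Log2 fold change of each tested member at KO day 4 against control with all 9 libraries (red circles) and without KO day 3 replicate 1 and KO day 4 replicate 3 (blue squares); open symbols did not pass. Cxcl10, Rsad2, Usp18, Irf7, Trim25 and Ifitm3 stayed filled in both, Oas3, Zbp1 and Isg15 became open, and Ifit1 became filled.

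At KO day 3 against control no member was called in either direction by edgeR, with 0.142% of all tested genes called higher and 0.298% lower. DESeq2 called 3 of 37 members higher, against 351 of 23487 genes, and limma voom called 3 of 33 higher, against 481 of 13405 genes. At an unadjusted p under 0.05 in edgeR there were 7 of the 33 members (21.2%), against 15.8% of all tested genes. The median log2 fold change over the members was 0.25, against -0.02 over all genes. The 7 members were Irf1, Zbp1, Isg15, Usp18, Ifitm3, Cxcl10 and Ifi44, each above 0 in the fit. Values of 5 members, Irf1, Zbp1, Isg15, Ifitm3 and Parp14, lay above all control values, which was the case for 12.1% of tested genes, and those of Ifih1 and Ifit2 lay below, against 18.0%. Replicate 3 was the highest KO day 3 library for 24 of the 33 members.

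KO day 4 against KO day 3 asks what the fourth day of tamoxifen added. Irf7 and Ifit3 were called higher and Ifitm3 lower, 2 and 1 of the 33 tested members, against 6.52% and 6.03% of all tested genes; with library size alone they were 1 and 14. Ifitm3 differed by a log2 fold change of -2.35 (SE 0.20, adjusted p = 2.7e-04), and this call as well as that of Irf7 held in all 9 fits that left out 1 library. The Ifit3 difference of 5.85 (SE 1.55, adjusted p = 0.033) rests on 38 KO day 4 counts and 2 KO day 3 counts, whose ratio was 62.1 with a 95% counting interval of 16.0 to 531. It was lost without KO day 4 replicates 2 or 3, without any KO day 3 library and without control replicate 3, at adjusted p of 0.051 to 0.093. Of the other members that were called at KO day 4, Usp18 was at 1.99 (SE 0.75, adjusted p = 0.10), Cxcl10 at 2.79 (SE 1.10, adjusted p = 0.11), Zbp1 at 0.73 (SE 0.84, adjusted p = 0.60) and Isg15 at 0.52 (SE 0.68, adjusted p = 0.65). None of these passed in this fit. Usp18 passed with DESeq2 (adjusted p = 0.033), and Cxcl10 with DESeq2 (adjusted p = 0.041), with limma voom (adjusted p = 0.044), with no filter (adjusted p = 0.048) and without KO day 3 replicate 3 (adjusted p = 0.046). For Irf1 the value was -1.13 (SE 0.42, adjusted p = 0.099). Values of 8 members lay above all KO day 3 values and those of 2 below, against 15.8% and 17.0% of all tested genes. Both KO groups are set against the same 3 control libraries.

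The interferons themselves were not seen. Ifna1, Ifna2, Ifna4, Ifna5, Ifnb1, Ifne, Ifnk, Ifnz, Ifnl2, Ifnl3 and Ifng had 0 counts in all 9 libraries, which at this depth does not show that they are absent. All 6 receptor genes were tested and none passed at KO day 4. Ifnar1 had 12.1, 10.02 and 19.3 CPM at KO day 4, 12.1, 13.2 and 12.6 at KO day 3 and 13.2, 16.3 and 13.2 in control, a log2 fold change of -0.06 (SE 0.26, adjusted p = 0.90) at KO day 4. Ifnar2 was at -0.40 (SE 0.46, adjusted p = 0.56) and -1.23 (SE 0.46, adjusted p = 0.22) at KO day 4 and KO day 3. Receptor genes for interferon gamma, Ifngr1 and Ifngr2, were at 0.25 and -0.41 at KO day 4, and those for interferon lambda, Ifnlr1 and Il10rb, at -0.50 and -0.11.

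Around the members, 119 further genes of the pathway were listed by role and 92 were tested. At KO day 4 11 were called higher and 9 lower, against 11.1% and 11.5% of all tested genes, with a median log2 fold change of 0.04; with library size alone they were 2 and 69. At KO day 3 1 was called, against 0.440% of all genes. Between the KO groups 7 were higher and 4 lower, against 6.52% and 6.03% of all tested genes. Below the receptor, 2 of 5 kinases and STATs were higher at KO day 4: Stat3 by 0.91 (SE 0.25, adjusted p = 0.022) and Jak1 by 0.69 (SE 0.22, adjusted p = 0.047), which turned to -0.99 and -1.24 with library size alone, 0.96 and 0.71 above the median of all genes. Stat3 passed in 5 and Jak1 in 2 of the 9 fits that left out 1 library. The single call at KO day 3 was the receptor kinase Tyk2, with 3.75, 2.04 and 3.51 CPM at KO day 3 against 11.8, 12.5 and 14.6 in control, a log2 fold change of -2.07 (SE 0.36, adjusted p = 0.036) that was lost without KO day 4 replicate 2, without any KO day 3 library and without any control library (-1.82 to -2.22, adjusted p = 0.051 to 0.18). Tyk2 is named after its values were seen.

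Of 21 tested genes of sensing and its adaptors, 1 was higher and 1 lower at KO day 4, against 11.1% and 11.5% of all tested genes. Traf3, an adaptor downstream of MAVS and TLR3, rose by 2.78 (SE 0.60, adjusted p = 0.0078), with 7.03, 10.97 and 19.5 CPM at KO day 4, 5.97, 4.55 and 1.49 at KO day 3 and 0.97, 2.81 and 1.57 in control. Rnf135, a ubiquitin ligase for RIG-I, fell by 1.39 (SE 0.39, adjusted p = 0.027). The Rnf135 call was lost without KO day 4 replicate 2 and without each control library (edgeR, adjusted p = 0.066 to 0.099). Of 10 tested genes that remove nucleic acids, 4 were called lower and none higher at KO day 4, against 11.5% and 11.1% of all tested genes. Skiv2l, a helicase of the RNA exosome, had 8.44, 14.2 and 8.06 CPM at KO day 4, 12.2, 12.1 and 15.9 at KO day 3 and 27.4, 24.4 and 29.1 in control, and fell by 1.40 (SE 0.26, adjusted p = 0.0039). Rnaseh2c and Rnaseh2a, subunits of the enzyme that cuts RNA in RNA-DNA hybrids, fell by 0.95 (SE 0.20, adjusted p = 0.0073) and 0.75 (SE 0.18, adjusted p = 0.014). Pnpt1, which degrades RNA in mitochondria, fell by 0.75 (SE 0.21, adjusted p = 0.027). Skiv2l and Rnaseh2c passed in all 9 fits that left out 1 library, Rnaseh2a was lost without control replicate 1 (adjusted p = 0.055), and Pnpt1 without KO day 4 replicates 2 and 3 and control replicates 2 and 3 (adjusted p = 0.052 to 0.11). Among 11 negative regulators, Tnfaip3, which encodes the ubiquitin-editing protein A20, was the only call at KO day 4, with 7.97, 5.72 and 5.60 CPM at KO day 4 against 1.40, 2.28 and 1.26 in control and a log2 fold change of 1.96 (SE 0.44, adjusted p = 0.0099).

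Interferon-stimulated genes outside the 37 numbered 49, of which 39 were tested. At KO day 4 7 were higher and 4 lower, against 11.1% and 11.5% of all tested genes. None was called at KO day 3 by edgeR, with 8 at an unadjusted p under 0.05, against 15.8% of all tested genes. Ifitm1, a relative and neighbour of Ifitm3, had 20.6, 33.5 and 54.0 CPM at KO day 4, 8.44, 0.78 and 2.20 at KO day 3 and 0.16, 0 and 0.09 in control. Ifitm1 rose by a log2 fold change of 8.73 (SE 1.04, adjusted p = 5.3e-04) at KO day 4, opposite in sign to that of Ifitm3. Apol9a rose by 3.66 (SE 0.87, adjusted p = 0.013) and the exonuclease gene Isg20 by 2.08 (SE 0.52, adjusted p = 0.016), and the secreted glycoprotein gene Lgals3bp fell by 1.13 (SE 0.27, adjusted p = 0.013). Isg20 was lost without each control library (edgeR, adjusted p = 0.0502 to 0.066). Apol9a was lost without control replicates 1 and 3 (edgeR, adjusted p = 0.058 and 0.062). With library size alone Ifitm1 stayed called at 6.86, while Apol9a at 1.77 (adjusted p = 0.082), Isg20 at 0.15 (adjusted p = 0.80), Traf3 at 0.80 (adjusted p = 0.22) and Tnfaip3 at 0.08 (adjusted p = 0.89) lost their calls. Cxcl9, another ligand of CXCR3, is named after its values were seen: it had 36 counts at KO day 4, 140 at KO day 3 and 2 in control. The ratio to control was 73.1 at KO day 4 (95% counting interval 18.8 to 626, adjusted p = 0.026) and 87.0 at KO day 3 (23.6 to 725, adjusted p = 0.12), and 1 KO day 4 library had none. The Cxcl9 call at KO day 4 was lost with limma voom (adjusted p = 0.11). It was also lost without KO day 4 replicates 1 or 3 and without each control library (edgeR, adjusted p = 0.051 to 0.095).

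The ISRE-like letters were present both in called members and in others. Of the 8 members called higher at KO day 4, 6 have a promoter window and 4 of these hold them (66.7%), the 4 printed at the outset. With 6 windows the shares cannot show whether the called members differ from the others. Of the other 29 members, 23 have a window and 11 hold them (47.8%), among them Ifih1, Ddx58, Eif2ak2, Stat2 and Bst2, and Ifitm3 with 2 matches after its start. Windows of Irf7 and Trim25, both called higher, hold no match, as do those of Irf1, Irf3 and Irf9. Among the 49 interferon-stimulated genes outside the list, 37 have a window and 15 of them a match (40.5%). A match is a description of letters and shows no binding.

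Markers of other cells moved with these groups. Mast cell markers summed to 452 to 1271 nuclear CPM at KO day 4, 22.0 to 193 at KO day 3 and 0.100 to 0.572 in control, with 10 of 11 markers present at KO day 4 and Mcpt1 at 0. Pan-leukocyte markers, 5 of 5 present at KO day 4, were at 32.1 to 76.7, 1.88 to 19.98 and 0.600 to 1.502 in these groups, with Ptprc and Tyrobp at 0 in control. Leukocytes also use Irf7, Cxcl10 and the other members, and the part of these cells in the results was not tested. Tuft cell markers, given only as a sum over 8 genes, were at 128 to 352 nuclear CPM at KO day 4, 12.9 to 32.3 at KO day 3 and 8.37 to 10.2 in control. Paneth cell markers were at 115800 to 153700, 33870 to 52260 and 21110 to 52500. The macrophage and dendritic cell list summed to 24.2 to 41.7 at KO day 4, 38.6 to 49.0 at KO day 3 and 64.8 to 86.2 in control, with 11, 10 and 7 of 11 markers present. The list held 428, 1550 and 2930 counts in these groups. Ctss gave 96, 769 and 2204 of them and Cd14 gave 82, 626 and 602. These 2 genes made up most of the sum at KO day 3 and in control, but not at KO day 4. Other markers of the list, named after their values were seen, had more counts at KO day 4 than in control: Cx3cr1 had 65, 11 and 0 (edgeR, adjusted p = 0.0023 at KO day 4 against control), Adgre1 50, 23 and 3 (adjusted p = 0.039), Csf1r 52, 28 and 22 (adjusted p = 0.086) and Cd68 28, 34 and 18 (adjusted p = 0.059). T and NK cell markers totalled 0 to 2.32 nuclear CPM at KO day 4, 1.33 to 2.08 at KO day 3 and 1.81 to 4.94 in control. Of the 11 markers, 3 had counts at KO day 4, 6 at KO day 3 and 3 in control. The 13 counts at KO day 4 were all in replicate 1. Cd3e, Cd3d and Cd3g were at 0 at KO day 4 and in control, and had counts at KO day 3. Siglech, which defines plasmacytoid dendritic cells, had no count in any library, and its list summed to 43.1 to 94.1, 24.8 to 54.6 and 44.8 to 51.0 nuclear CPM, nearly all from Klk1. All 5 neutrophil markers were at 0. B and plasma cell markers held 42 counts at KO day 4, 76 at KO day 3 and 95 in control. Their sum was 2.15 to 4.82 nuclear CPM at KO day 4, 1.76 to 2.35 at KO day 3 and 1 to 4.15 in control. On this scale KO day 4 overlapped control. Markers of stroma and endothelium were at 37.6 to 70.3, 7.05 to 14.8 and 2.40 to 5.80 nuclear CPM in these groups. Enteroendocrine markers were at 223 to 389, 62.4 to 133 and 24.2 to 96.6, goblet cell markers at 926 to 1439, 731 to 1281 and 808 to 1242, and epithelial markers at 6452 to 6620, 6047 to 6737 and 7018 to 7326. The part of each of these in the members' values was not tested.

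**Figure D4:**
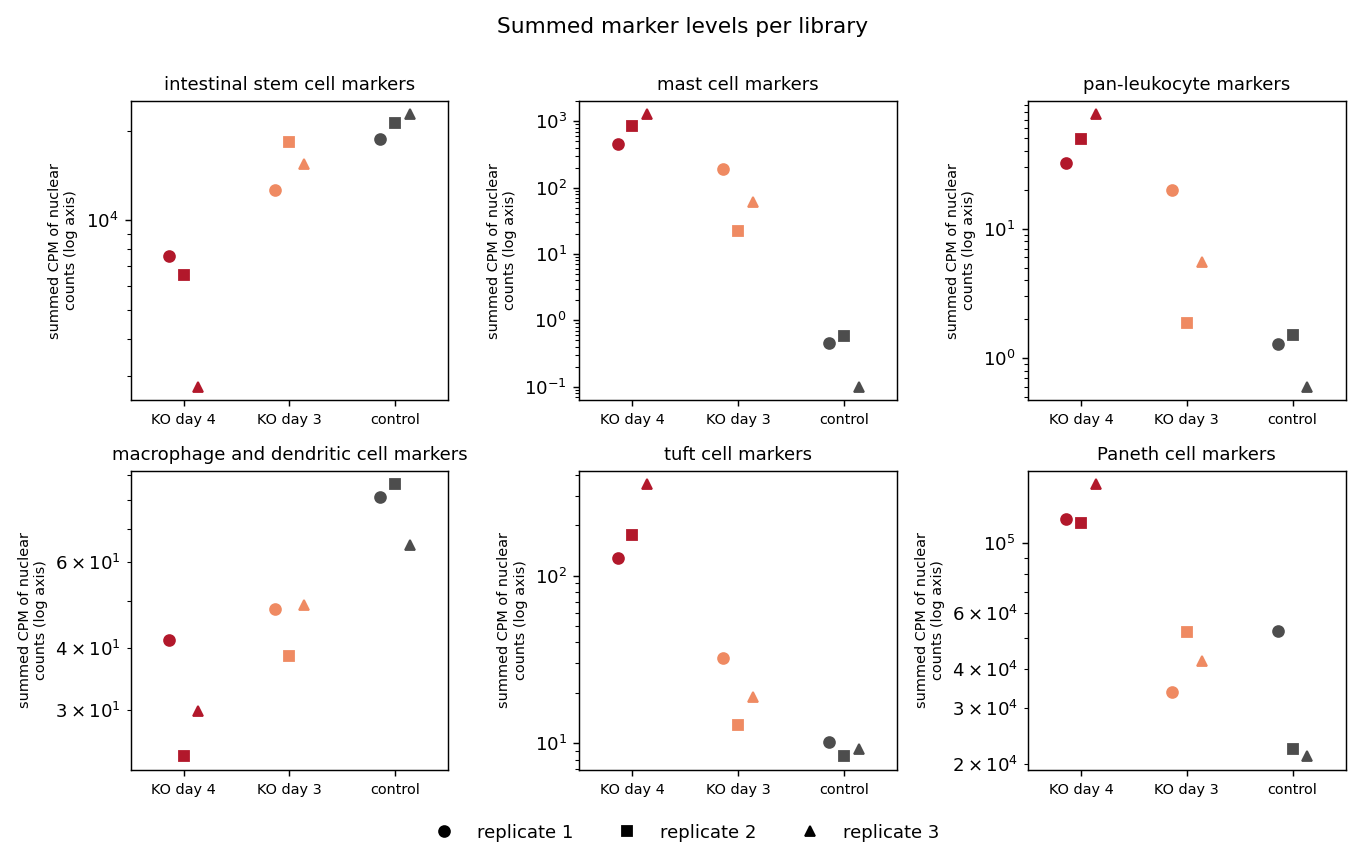
Summed nuclear CPM of 6 marker lists (vertical log axes with their own ranges) in each of the 9 libraries, by group. Mast cell, pan-leukocyte and tuft cell markers were highest in the 3 KO day 4 libraries, and intestinal stem cell markers were highest in the 3 control libraries, as was the macrophage and dendritic cell sum. Ctss and Cd14 made up most of that sum at KO day 3 and in control, but not at KO day 4.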

How the data were processed

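Per the labels' protocols, sorted cells gave total RNA that was cleared of DNA, and mRNA was isolated from it for libraries. The table holds raw counts as the authors deposited them, per Ensembl gene and for each of 9 libraries, not normalized; its 6 trailing columns hold no values. HISAT2 2.0.4 and GRCm38 are named in the submitters' processing notes. Which tool counted reads, with which annotation and strand setting, is not given in the sources used here. Names and coordinates were taken from GENCODE M21, which named 51933 of 57180 identifiers. Exons of 14 members overlap another gene, and those counts are uncertain to that extent.

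Counts were tested with edgeR 4.0.16 in R 4.3.3: filterByExpr (min.count 10, min.total.count 15), TMM, and the quasi-likelihood F-test in 1 fit of all 9 libraries without covariates, with Benjamini-Hochberg adjustment over 13405 genes and a threshold of 0.05. The SE is the size of the log2 fold change divided by the root of F. Each fold change is the group named first over the second. Alternatives were DESeq2 1.42.0, voom with quality weights in limma 3.58.1, other scalings and filters, a replicate block, fits of 2 groups and left-out libraries. Counting intervals and floors cover counting error only. Between replicates of a group, counts differed by more than sampling noise (chi-square over its degrees of freedom 13.8 to 96.9). Named in full were members called in any contrast, the 5 transcription factors and the sensors Ddx58, Ifih1 and Tlr3, and up to 4 called genes of each pathway list with the smallest adjusted p at KO day 4. The values of 1 gene of the pathway lists are not reported here, though it is in their counts. The members and lists were chosen with earlier results of these data known.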

Additional observations from a re-analysis of the deposited data

Results flagged for a closer look

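Of all tested genes, 12.5% differed between KO day 4 and KO day 3 (edgeR, adjusted p under 0.05). Among the reported members and pathway genes, the change from control differed for 13 by this test of the difference itself. Their values are given here as log2 fold changes of KO day 4 over KO day 3. Among the members these were Irf7 at 2.13, Ifit3 at 5.85 and Ifitm3 at -2.35. Below the receptor, Jak1 differed by 0.77 and Stat3 by 0.84. Riok3, an adaptor of sensing, differed by 0.83, the RNase H2 genes Rnaseh2a and Rnaseh2c by -0.77 and -1.11, and Tnfaip3 by 1.78. Of the other interferon-stimulated genes, Ifitm1 differed by 3.30, Apol9b by 2.97, Plscr1 by 0.85 and Ube2l6, the ISG15-conjugating enzyme, by -1.85. Of these, Irf7, Ifitm3 and Rnaseh2c passed in all 9 fits that left out 1 library, and Stat3 in none. With library size alone Jak1, Stat3, Riok3 and Plscr1 turned to between -0.77 and -0.67, and Irf7 at 0.59, Tnfaip3 at 0.27 and Apol9b at 1.48 no longer passed.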

How the results depend on the processing

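Depth limits the low members most, since 1 CPM was 4.47 to 8.53 counts in a KO day 4 library. Over the members' fold changes in 3 contrasts, 1592 alternative values kept their direction and side of the threshold, 48 kept their direction and gained a call, 46 kept it and lost one, and 128 turned in direction. In 13 of the 128, all with library size alone, at least 1 of the 2 fits made a call, and in the other 115 neither did. For Trim25 at KO day 4 both fits made a call, in opposite directions. Its log2 fold change was 0.53 (edgeR, adjusted p = 0.032) in the main fit and -1.37 (edgeR, adjusted p = 6.1e-05) with library size alone. Library size alone leaves out the TMM factors, and the median of all genes then lies at -1.95 for KO day 4 and -0.39 for KO day 3 relative to control, and at -1.54 between the KO groups.

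With that scaling, members that turned at KO day 4 with a call were Irf1 at -1.46, Irf3 at -1.69, Ddx58 at -1.15, Trim25 at -1.37, Eif2ak2 at -1.92, Oas1a at -1.34, Oasl2 at -1.13, Ifi35 at -1.81 and Parp14 at -1.73, and without one Stat2 at -1.01, Oas1g at -1.16, Oasl1 at -0.22, Ifi44 at -0.048 and Rtp4 at -0.93. Between the KO groups they were Irf3 at -1.39, Mavs at -1.25, Trim25 at -1.10 and Oasl2 at -1.18 with a call, and without one Stat2 at -0.34, Ddx58 at -0.51, Dhx58 at -1.38, Zbp1 at -0.89, Oas1a at -0.78, Oas1g at -1.005, Oasl1 at -0.40, Ifit2 at -0.96, Isg15 at -1.06 and Rtp4 at -0.97. At KO day 3 they were Irf3 at -0.30, Irf9 at -0.29, Tlr3 at -0.37, Trim25 at -0.26, Eif2ak2 at -0.25, Oas1g at -0.15 and Ifi35 at -0.10, none with a call.

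The rest turned without a call in either fit. With voom these were Irf1 at -0.078, Dhx58 at 0.24, Eif2ak2 at -0.055, Adar at 0.050, Ifi35 at -0.33 and Parp14 at -0.23 at KO day 4, Irf3 at -0.072, Tlr3 at -0.25 and Adar at 0.13 at KO day 3, and Zbp1 at -0.070, Oasl2 at -0.17, Ifit2 at -0.68 and Rtp4 at -0.28 between the KO groups. Without both unlike libraries they were Irf1 at -0.035, Dhx58 at 0.046, Mavs at 0.0098, Eif2ak2 at -0.13, Adar at 0.15, Ifi35 at -0.49 and Parp14 at -0.38 at KO day 4, Irf3 at -0.15, Stat2 at 0.077, Tlr3 at -0.29 and Adar at 0.19 at KO day 3, and Zbp1 at -0.42, Oasl2 at -0.38 and Isg15 at -0.35 between the KO groups. Eif2ak2 at KO day 4 was at -0.10 with no filter and at -0.0046 without mitochondrial genes. Irf3 at KO day 3 was at -0.0039 with the CPM minimum, Tlr3 at -0.014 with no filter, and Adar at 0.014 with RLE size factors, 0.0084 with DESeq2 and 0.022 in a fit of the 2 groups.

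With 1 library left out, ranges that crossed 0 at KO day 4 were -0.044 to 0.84 for Irf1, -0.21 to 0.075 for Irf9, -0.69 to 0.28 for Dhx58, -0.16 to 0.038 for Mavs, -0.13 to 0.17 for Eif2ak2, -0.47 to 0.15 for Adar, -0.77 to 0.46 for Ifit2, -0.50 to 0.39 for Ifi35 and -0.39 to 0.43 for Parp14. At KO day 3 they were -0.15 to 0.18 for Irf3, -0.052 to 0.75 for Irf7, -0.18 to 0.52 for Irf9, -0.82 to 0.075 for Stat2, -0.70 to 0.20 for Dhx58, -0.29 to 0.19 for Tlr3, -0.16 to 0.19 for Adar, -0.60 to 0.059 for Oas1a, -0.17 to 0.47 for Oas1g, -0.80 to 0.87 for Ifit1, -0.11 to 0.76 for Bst2, -0.36 to 0.14 for Xaf1 and -0.0089 to 0.76 for Rtp4. Between the KO groups they were -0.59 to 0.12 for Irf9, -0.33 to 0.40 for Dhx58, -0.46 to 1.21 for Zbp1, -0.47 to 0.14 for Adar, -0.22 to 0.66 for Oasl2, -0.11 to 1.11 for Ifit2, -0.071 to 1.55 for Isg15, -1.97 to 0.21 for Ifi44, -0.75 to 0.13 for Ifi35, -1.56 to 0.027 for Xaf1 and -0.12 to 1.14 for Rtp4.

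At KO day 4 against control, 8 members were called higher, against 1 with library size alone, 2 with a minimum mean of 5 CPM, which leaves fewer genes tested, and 3 to 10 when 1 library was left out. DESeq2 called 12 of 37 members higher, against 2293 of 23487 genes, and the calls it added were Oas2, Oasl1, Ifit1 and Ifit3. The 1 lower call was 18 with library size alone, 2 with voom and 1 in each left-out fit. The 20 pathway calls were 71 with library size alone, 13 with the CPM minimum and 7 to 22 with 1 library left out, and the 3021 calls over all genes were 11057 and 1588 to 3839 with library size alone and with 1 library left out. At KO day 3 against control, no member was called higher, against 2 with no filter, 3 with DESeq2, 3 with voom, 1 in a fit of the 2 groups, 1 without both unlike libraries and 0 to 1 with 1 library left out; for lower calls that range was 0 to 0. The 1 pathway call was 5 with library size alone, 2 without mitochondrial genes, 4 with no filter, 7 with DESeq2, 12 with voom, 3 with the 2 groups, 6 without both unlike libraries and 0 to 4 with 1 left out. Over all genes the 59 calls were 518, 317, 811, 1423, 337 and 646 with library size alone, no filter, DESeq2, voom, the 2 groups and without both unlike libraries, and 0 to 345 with 1 left out. At KO day 4 against KO day 3, the 2 higher calls were 1 with library size alone, 4 with no filter, 7 with DESeq2, 1 with the 2 groups, 1 without both unlike libraries and 1 to 2 with 1 left out. The 1 lower call was 14 with library size alone, 2 with no filter and 1 to 2 with 1 left out. The 11 pathway calls were 62 with library size alone, 7 with the CPM minimum, 21 with DESeq2, 2 with the 2 groups and 3 to 9 with 1 left out. The 1682 calls over all genes were 9508 with library size alone, 3045 with DESeq2, 806 with the 2 groups and 648 to 1802 with 1 left out. The cause of each shift was not tested.

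Same-numbered libraries did not deviate together (correlations of -0.054 to 0.132), so the replicate numbers were not taken as a pairing. With the replicate block, members called higher were 6 at KO day 4 and 1 at KO day 4 against KO day 3, the pathway call at KO day 3 was 0 and the calls over all genes there were 9, and at KO day 3 Irf9 and Tlr3 turned to -0.023 and -0.031 without a call.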
